A study of Mus musculus with 2 samples.

Results

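Genes of the calcineurin pathway and of the MEF2 factors, 10 in all, were examined in skeletal muscle of mice overexpressing RXRγ. They are Rcan1, the calcineurin subunit genes Ppp3ca, Ppp3cb and Ppp3r1, the NFAT gene Nfatc1, the calsarcin genes Myoz1 and Myoz2, and the MEF2 genes Mef2a, Mef2c and Mef2d, and all are among the 3780 genes measured. They were chosen by their role in the pathway when the signals of these arrays were already known, and Rcan1 was by then known to be much higher, so all values below are a description and support nothing beyond these arrays. A gene was found through the probe sets whose only symbol in the platform annotation is its own, which gave 34 probe sets for the 10 genes.

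RXRγ mice carry RXRγ under the human α-actin promoter, which acts in skeletal muscle. The study's methods name C57BL6 as the mice bought and do not state the background of the transgenic line. The controls are wild-type mice without the transgene, and both groups are females of 4 months. The RNA of each genotype was combined before hybridization to 1 Affymetrix MG430 array, so there are no replicates, no error and no test, and precision is limited by there being 1 array per genotype. The design text gives 5 animals per pool and the labels give 3, RXRγ mice came from a single transgenic line, and the labels do not say which muscle was taken.

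Calcineurin is a phosphatase switched on by calcium and calmodulin, made of a catalytic and a regulatory subunit. In muscle fibres it removes phosphate from NFAT factors, which then enter the nucleus, and together with MEF2 factors it is known for driving genes of slow fibres. Rcan1 binds and inhibits calcineurin and is itself switched on by it in a feedback loop, while calsarcins tether calcineurin to the Z-disc.

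Among the 10 genes, Rcan1 was higher in RXRγ mice and the others moved little by comparison. Its signal was 4.81-fold higher. Ppp3ca and Ppp3cb, the catalytic subunits, were 1.36-fold and 1.34-fold lower, and Nfatc1 was 1.54-fold lower at the single probe set bright enough to be used. The calsarcin and MEF2 genes and Ppp3r1 stayed within the threshold. In these whole-muscle pools, fewer fibres of a type and less RNA per fibre cannot be told apart.

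On these arrays a transcript is read by a probe set, several short oligonucleotides whose combined brightness is the signal, on a linear scale without a unit. For each probe set above 250 on the brighter array, the signal in RXRγ mice was divided by that in control mice, and the log2 of this ratio was averaged per gene. A gene was called higher at a log2 ratio of 0.4 or more and lower at -0.4 or less. The study's methods state this cutoff for increases, and the same size was used here for decreases. On this rule 1 of the 10 genes was called higher and 3 were called lower, while of all 3780 genes 16.8% were higher and 20.1% lower. The threshold lay close to several of the genes: Ppp3cb was just inside it at -0.43 and Ppp3r1 just outside at 0.38. The median log2 ratio of the 10 genes was -0.12, against -0.04 for all genes, and the median of the absolute values was 0.28 against 0.29. Without Rcan1 the median was -0.18. The set as a whole was thus no further from 0 than measured genes in general. Of the 34 probe sets, 23 passed 250, with 7 of these brighter and 16 dimmer in RXRγ mice. Several of them read the same gene, so they are not separate observations. Of all 3780 genes 46.5% had a log2 ratio above 0, which is a share of genes and not of probe sets, so it is no measure for these counts. At 2 of the 23 the log2 ratio was 0.4 or more and at 5 it was -0.4 or less, where 17.2% and 20.9% of all 5538 such probe sets lay.

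The arrays differed in the transgene product, Rxrg, whose signal was 334.5 in the controls and 9172 with the transgene. Fibre genes were bright on both arrays and those of other tissues mostly were not. The 6 fibre markers (Ckm, Acta1, Des, Mb, Tnnt3 and Myh4) had a summed signal of 56981 and 50929, and 2 of them, Ckm and Myh4, were lower by the threshold. Both calls rest on probe sets that disagreed, with log2 ratios of -1.39 and -0.11 for Ckm and -0.77 and -0.06 for Myh4. None of 5 cardiac markers reached 250 (summed signal 88.4 and 119.2), nor did any of 3 satellite cell or 4 endothelial markers, or either of the 2 red blood cell markers with a probe set of their own (Hba-a1 and Alas2). The 4 fibroblast markers summed to 6651 and 7267 and the measured adipocyte markers Adipoq and Fabp4 had log2 ratios of 0.17 and 0.19, none of them called. The summed signal of the leukocyte markers was 714.6 and 872.2, of the Schwann cell markers 761.3 and 916.3, and of the smooth muscle markers 1032 and 860.6. The part of other cell types in the differences below was not tested.

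**Figure D1:**
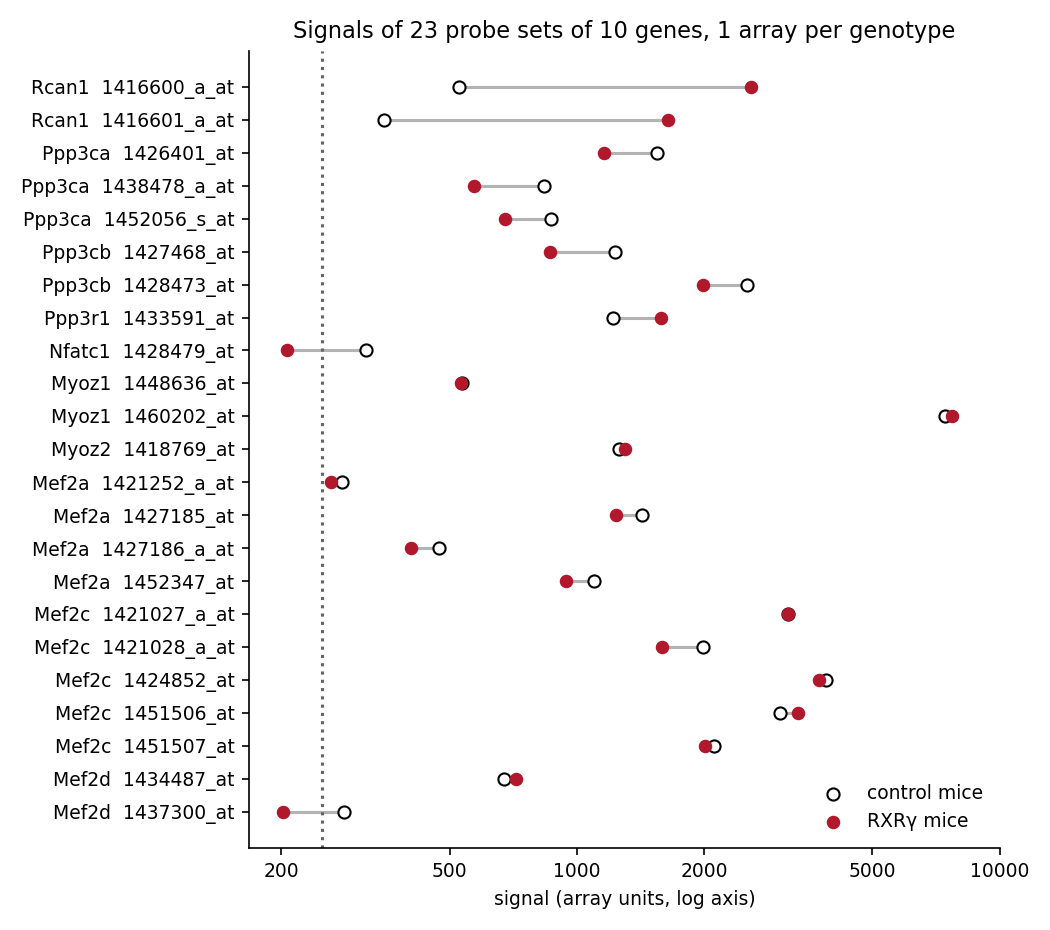
Signal of the 23 probe sets above 250, in array units on a log axis, with the gene and the probe set named at the left, with open circles for the control array and red circles for the RXRγ array. The dotted line is at 250. Both probe sets of Rcan1 move far to the right (to 2586.6 and 1641.5), all 5 of Ppp3ca and Ppp3cb move to the left, and most of the others hardly move.

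Rcan1 encodes the regulator of calcineurin that inhibits the phosphatase. One probe set gave 525.7 for the controls and 2586.6 for RXRγ mice, and another gave 349.7 and 1641.5. Both were thus well above 150 on either array. The log2 ratios of 2.30 and 2.23 lay within 0.07 of each other, against a median of 0.20 between the probe sets of one gene among the 1213 genes with several. The annotation gives both probe sets the same source sequence and they read the same pools, so they are not independent readings. Averaged over both, Rcan1 had the 38th highest log2 ratio of the 3780 genes, and 1.40% of all genes lay further from 0 in either direction. Through its signal in RXRγ mice it belongs to the 399 genes above 2000 on the brighter array, of which 11.3% were called higher. The mean control signal of Rcan1 was 437.7. The 1859 genes between 250 and 500 on the brighter array, of which 17.4% were called higher, do not include Rcan1. They were grouped by the brighter array, so this share is not one for genes matched to Rcan1 by control signal. Among genes above 150 on both arrays, those nearest in log2 ratio were Msrb1 (2.30), Plcb4 (2.55) and Car14 (2.55) above it and Ehd4 (2.14), Hspa1b (2.10) and Egf (2.04) below it. With 2 arrays this likeness is that of a single ratio, and nothing follows from it about shared function.

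The gene has more than 1 transcription start, and a downstream start is known for its response to NFAT. Both probe sets carry the suffix _a_at, which marks probe sets shared by alternative transcripts of a gene, so the signals do not tell the starts apart. The RefSeq promoter table (GRCm38.p6) holds both starts. The 250 bases before each are shown because Rcan1 is the gene that differed most. Capitals mark GGAAA on either strand, the core of sites that NFAT is known to bind. The upstream start lies after chr16:92466170-92466419 and the downstream one after chr16:92400079-92400328, both on the minus strand, written 5′ to 3′ in the direction of transcription.
Rcan1 upstream start: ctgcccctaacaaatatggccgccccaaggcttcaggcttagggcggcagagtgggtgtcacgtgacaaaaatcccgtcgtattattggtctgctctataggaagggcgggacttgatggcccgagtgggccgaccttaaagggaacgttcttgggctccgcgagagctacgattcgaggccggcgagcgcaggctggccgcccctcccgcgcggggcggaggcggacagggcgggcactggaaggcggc
Rcan1 downstream start: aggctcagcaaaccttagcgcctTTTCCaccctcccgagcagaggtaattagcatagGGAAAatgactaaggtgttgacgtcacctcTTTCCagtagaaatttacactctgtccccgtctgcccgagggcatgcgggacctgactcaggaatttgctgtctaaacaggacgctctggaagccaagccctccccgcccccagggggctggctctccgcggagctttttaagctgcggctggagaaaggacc
The downstream stretch holds GGAAA at 3 places, from -227 to -223, from -193 to -189 and from -163 to -159 counted back from the start, and the upstream stretch holds none. Such a short word is common. Over windows of 250 bases before to 50 bases after a start, searched on both strands, 61.3% of the 32851 promoters in the table hold it, and 5 of the 10 promoters listed for 7 of the genes do. A match is a description of letters, not of binding.

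The catalytic subunits were dimmer in RXRγ mice at each probe set above 250. Ppp3ca, which encodes the α isoform, had signals of 1549.9, 838.4 and 867.9 in control mice and 1156.5, 570.6 and 676.4 in RXRγ mice. Its log2 ratios ran from -0.56 to -0.36, and 2 of the 3 passed the threshold. Ppp3cb, which encodes the β isoform, had 1228.4 and 2530.7 in control mice against 863.7 and 1990.5 in RXRγ mice, with log2 ratios of -0.51 and -0.35. Its 3 other probe sets did not reach 250, and the brightest of these had 188.4 and 184.1. Of the 504 genes with a signal between 1000 and 2000 on the brighter array, where both subunits lie, 26.6% were called lower, more than the 20.1% of all genes. Of all genes 33.3% lay further from 0 than Ppp3ca. Both calls depended on the scaling: with intensity-dependent centring Ppp3ca had -0.39 and Ppp3cb -0.36, and with quantile normalization Ppp3cb had -0.39.

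Ppp3r1, the calcium-binding regulatory subunit, went the other way. Its signal was 1218.5 for the controls and 1581.2 for RXRγ mice, a log2 ratio of 0.38. It passed the threshold with quantile normalization (0.42) and with intensity-dependent centring (0.45). Another probe set was dim on both arrays (69.3 and 72.8), and one that the annotation gives to Ppp3r1 and to Wdr92 had 189.3 and 216.9. The remaining subunit genes of the list, Ppp3cc and Ppp3r2, which encode the γ catalytic subunit and a regulatory subunit known from testis, had highest signals of 111.4 and 2.2 and were not measured.

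Nfatc1, which encodes a factor that calcineurin sends to the nucleus, rests on 1 of its 5 probe sets. There the control array gave 317.1 and the RXRγ array 206.1, a log2 ratio of -0.62. None of its other probe sets exceeded 93.1, and their log2 ratios lay between -0.15 and 0.20. Without a signal filter the mean of all 5 was -0.14, and with 250 required on both arrays Nfatc1 was not measured at all. Of 5 NFAT genes 1 more was measured: Nfatc3 had 258.9 and 195.4, a log2 ratio of -0.41, and was not called with quantile normalization (-0.39) or intensity-dependent centring (-0.17). Nfatc3 passed 250 only on the control array. Nfatc2, Nfatc4 and Nfat5 did not reach 250, the highest signal among them being 121.1.

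**Figure D2:**
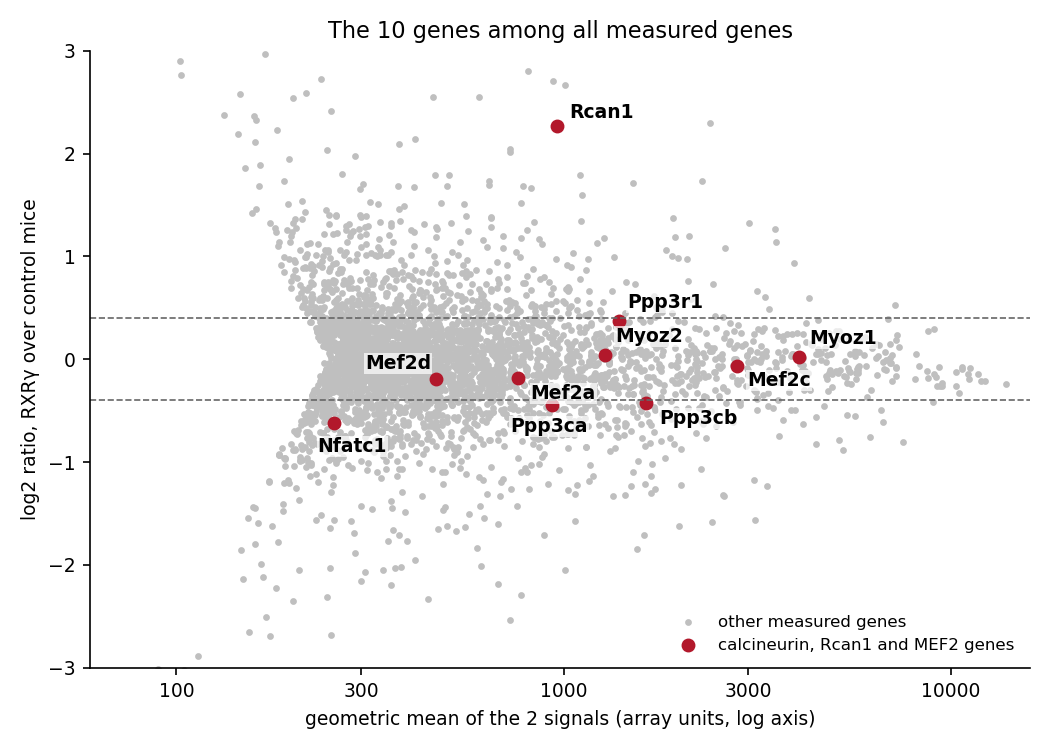
Log2 ratio of RXRγ over control mice against the geometric mean of the 2 signals (log axis, array units), 1 point per measured gene, with the 10 genes in red and dashed lines at 0.4 and -0.4. Genes beyond 3 in either direction, 26 in all, lie outside the axes. Rcan1 stands at 2.26 above the cloud, while Ppp3ca, Ppp3cb and Nfatc1 lie at -0.45, -0.43 and -0.62 just under the lower line.

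The calsarcins hold calcineurin at the Z-disc, Myoz1 in fast fibres and Myoz2 in slow fibres and heart. Myoz1 had signals of 534.5 and 7428.2 in control mice and 530.8 and 7726.8 in RXRγ mice at its probe sets, log2 ratios of -0.01 and 0.06. Myoz2 had 1256.9 and 1296.3, a log2 ratio of 0.04. Each gene was thus almost equal on the arrays, and with median scaling both turned slightly negative (-0.07 and -0.05). Myoz3, a further calsarcin of fast fibres that is not among the 10 genes, was 2.59-fold lower, at 576.8 for the controls and 222.3 for RXRγ mice.

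The MEF2 genes encode transcription factors of the MADS-box family, which switch on muscle genes. Mef2c, read by 5 probe sets, had signals from 1991.2 to 3883.4 in control mice and from 1593.0 to 3744.2 in RXRγ mice. Its log2 ratios ran from -0.32 to 0.14 with a mean of -0.06, and with intensity-dependent centring the mean was 0.00. Mef2a had signals from 279.1 to 1429.2 in control mice and from 261.7 to 1239.1 in RXRγ mice. All 4 of its probe sets above 250 were dimmer in RXRγ mice, by similar amounts (-0.22 to -0.09). Mef2a kept its negative sign under each of the 3 other scalings (-0.28 to -0.14), without reaching the threshold.

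The probe sets of Mef2d disagreed. One had 672.2 for the controls and 718.9 for RXRγ mice, and the other had 281.1 and 201.5, log2 ratios of 0.10 and -0.48. Their distance of 0.58 is larger than the 90th percentile of 0.54 over genes with several probe sets, and the mean of -0.19 describes neither. A further probe set, with 125.6 and 142.5, was too dim. Mef2b had a highest signal of 26.2 and was not measured.

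Among the 10 promoters listed for 7 of the genes, those of Myoz2 and Mef2a hold the MEF2 site, the sequence that MEF2 factors are known to bind. No promoter was listed for Ppp3ca, Nfatc1 and Myoz1, so these were not searched. It was searched in its 10-base palindromic form on both strands. The stretches are shown, with the match in capitals, because they are the only matches to this site among these 10 promoters. They lie at chr3:123034988-123035087 and chr7:67372849-67372958 (GRCm38.p6), both on the minus strand, and are written 5′ to 3′.
Myoz2: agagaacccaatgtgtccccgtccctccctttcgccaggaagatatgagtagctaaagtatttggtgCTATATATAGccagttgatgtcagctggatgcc
Mef2a: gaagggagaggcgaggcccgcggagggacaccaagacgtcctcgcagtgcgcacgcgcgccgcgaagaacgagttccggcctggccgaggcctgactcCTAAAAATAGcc
In Myoz2 the match runs from -33 to -24 and in Mef2a from -2 to 8 around the start. Of all 32851 promoters 0.557% hold it. The half-site AGGTCA, which nuclear receptors such as RXR are known to bind as part of longer sites, was found in 2 of the 10 promoters, both of them starts of Mef2c, and in 16.3% of all. Neither gene with a MEF2 site was called higher or lower, and the search says nothing of binding in these mice.

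**Figure D3:**
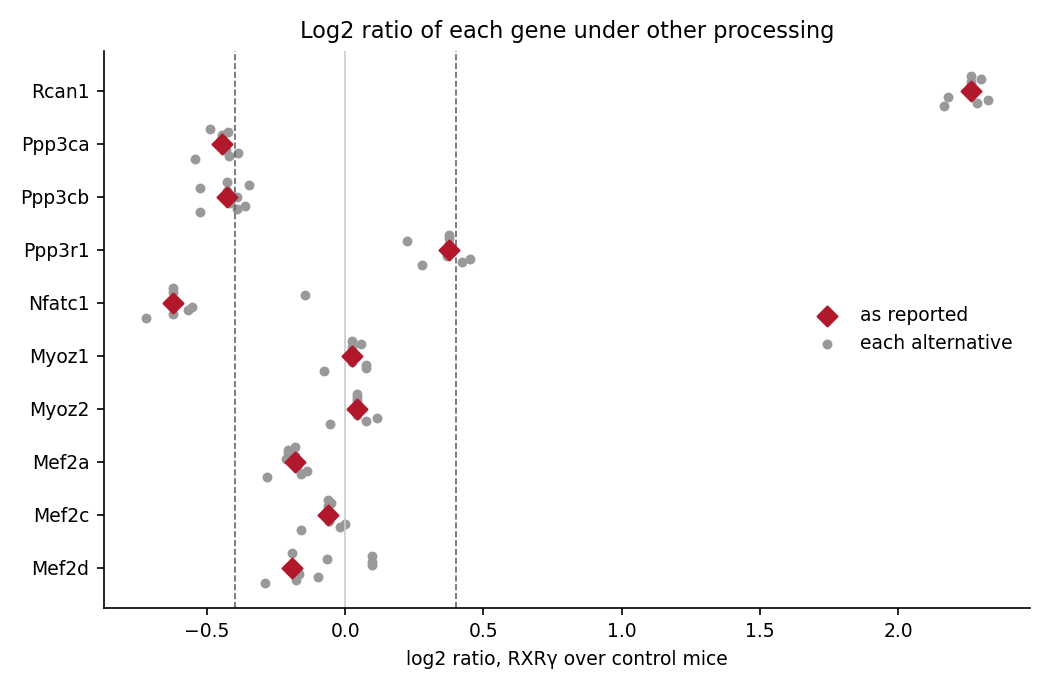
Log2 ratio of each of the 10 genes as reported (red diamonds) and under each alternative processing that gave a value (grey points), with dashed lines at 0.4 and -0.4. Rcan1 stays between 2.17 and 2.32, Ppp3ca and Ppp3cb straddle -0.4, Ppp3r1 straddles 0.4, and the grey point of Nfatc1 at -0.14 is the one without a signal filter.

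The rest of the pathway was followed through lists of genes, whose counts stand against the 16.8% of all measured genes called higher and the 20.1% called lower, and whose medians stand against -0.04. Of 17 regulators and anchors of calcineurin, 11 were measured, 4 were higher and 3 lower, with a median log2 ratio of 0.12, and the 3 lower of 11 are close to the share of 20.1% over all genes. Besides Rcan1, the higher ones were Lmcd1, a LIM domain protein (1.06), the anchoring protein gene Akap6 (0.58) and Rcan2, a relative of Rcan1 (0.51). Rcan2 had 559.6 for the controls and 799.1 for RXRγ mice, while Rcan3 was at 37.2 or less on both arrays. The lower ones were the ubiquitin ligase gene Fbxo32 (-2.18), Myoz3 (-1.38) and Csrp3, a Z-disc LIM protein (-0.52). The 3 probe sets of Fbxo32 ranged widely, from -2.98 to -0.67, and Myoz3 and Csrp3 each rest on 1 probe set above 250. Fhl1 (0.12) and the calsarcin Myoz1 were the brightest of those not called. The counts in both directions were equal under each of the 3 other scalings.

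Upstream of calcineurin, calmodulin genes have no probe set named for them alone. Of 12 genes of calmodulin and its kinases, 4 were measured, 1 was higher and 2 lower (median -0.27). Camk2d, a calcium/calmodulin-dependent kinase, had 175.1 for the controls and 429.4 for RXRγ mice, a log2 ratio of 1.26. A control signal behind it was under 150 and too low for a fold, and with such signals set to 150 the ratio was 1.22. The related genes Camk2b (-0.70) and Camk2a (-0.56) were lower, and Camk2g (0.02) was not called. Camk2b had 256.4 for the controls and 158.3 for RXRγ mice, so it was measured only through the control array. Of these 4 related kinase genes 1 was thus higher, 2 were lower and 1 was neither, beside 16.8% and 20.1% of all genes. With intensity-dependent centring Camk2b was not called (-0.21).

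NFAT leaves the nucleus once it is phosphorylated again. Of 13 genes of NFAT kinases and nuclear export, 11 were measured, 3 were higher and 4 lower (median -0.30), beside 16.8% and 20.1% of all genes. The lower ones were the scaffold gene Homer2 (-0.96) and the kinase genes Dyrk2 (-0.85), Gsk3b (-0.53) and Gsk3a (-0.49). A signal of Homer2 in RXRγ mice was under 150, and its log2 ratio was -0.78 with such signals set to 150 and -0.59 with intensity-dependent centring. The higher ones were Prkaca (0.74) and Prkacb (0.55), catalytic subunits of protein kinase A, and the exportin gene Xpo1 (0.60). Prkacb had 244.6 for the controls and 357.1 for RXRγ mice at 1 probe set, so it was measured only through the RXRγ array. Of those not called, the brightest were Csnk1a1 (-0.26) and Homer1 (-0.30). With median scaling 6 were lower, because Dyrk1a and Homer1 passed the threshold as well, and with intensity-dependent centring 3 were, because Gsk3b was not called (-0.39).

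Of 16 cofactors and kinases of MEF2, 8 were measured, 1 was higher and none was lower (median 0.01), beside 16.8% and 20.1% of all genes. The higher gene, Ywhaz, encodes a 14-3-3 protein and had a log2 ratio of 0.46, which was under the threshold with median scaling. The brightest genes not called were Ywhae (-0.14) and Vgll2 (-0.34), and with median scaling Vgll2 was lower. The class II histone deacetylase genes Hdac4, Hdac5, Hdac7 and Hdac9, which encode repressors of MEF2, did not exceed a signal of 141.9.

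Genes of slow fibres, which this pathway is known to drive, were mostly lower in RXRγ mice. Of 12 listed, 11 were measured, 8 were lower and 2 were higher (median -1.55), where 20.1% of all genes were lower and 16.8% higher. Myl2, a slow myosin light chain, had 2909.5 for the controls and 893.0 for RXRγ mice, a log2 ratio of -1.70, and Myl3, Myh7 and Tnnt1 were lower still. The signal of Myl3 in RXRγ mice, 23.2, was under 150 and too low for a fold. The higher genes were Casq2, the calcium-binding protein of slow and cardiac muscle (0.72), and the coactivator gene Ppargc1a (0.44), the latter not with median scaling. Mb, which encodes myoglobin, had -0.23.
Of 12 genes of fast fibres, all were measured, none was higher and 3 were lower (median -0.22), and the 3 of 12 are close to the 20.1% of all genes called lower. These were Myh2 (-0.81), the myosin of fast oxidative fibres, Casq1 (-0.49) and Myh4 (-0.42), of which Myh4 was not called with quantile normalization or intensity-dependent centring. Tnnt3 (-0.24) and Mylpf (-0.21) were the brightest of the others. Of the MEF2 genes and calsarcins with which these lists are linked in muscle, Mef2a, Mef2c, Mef2d, Myoz1 and Myoz2 stayed between -0.19 and 0.04. The calsarcin Myoz3 had -1.38, and the mean of Mef2d covers probe sets at 0.10 and -0.48.

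**Figure D4:**
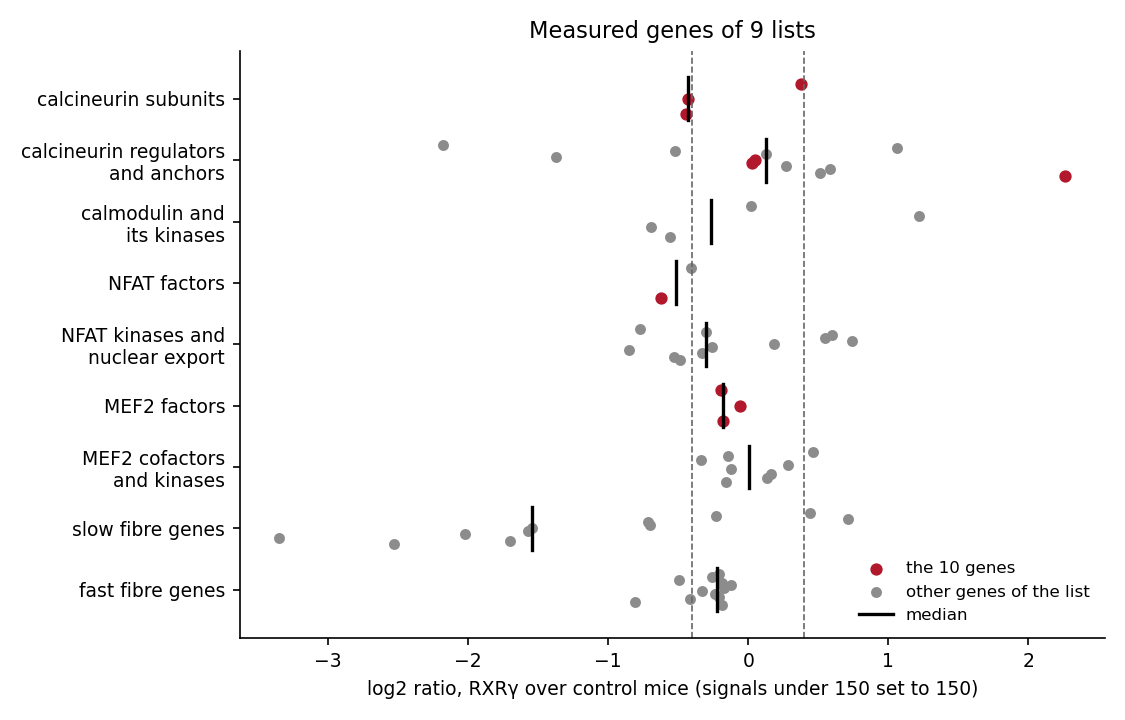
Log2 ratio (RXRγ to control) of each measured gene in 9 lists, 1 point per gene, spread vertically for legibility, with signals under 150 set to 150. Red points are the genes of the report's set, black bars are list medians and dashed lines lie at 0.4 and -0.4. Rcan1 is the point furthest to the right at 2.26, the slow fibre genes have a median of -1.55, and the 3 MEF2 genes lie between the dashed lines.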

How the data were processed

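Skeletal muscle RNA of control and RXRγ mice, pooled within each genotype, was measured on 1 array per genotype. The authors made the deposited signal intensity values with the Affymetrix Gene Chip software, from perfectly matched against mismatched oligonucleotides. The values are linear and scaled, with a mean of 100.0 on each array after trimming 2% at each end. No source used here describes the scaling. Of 45101 probe sets, 34958 name 1 gene, 932 name several and 9211 are not listed, and only the first kind entered gene values.

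The log2 ratio was taken without a pseudocount, and a gene is the mean over those probe sets of it that exceeded 250 on at least 1 array. A signal under 150 was taken as too low for a fold. Genes whose probe sets passed 0.4 in both directions (3 of 3780) count as neither. No p-values were computed, and precision cannot be given from 1 array per genotype. The genes and lists were chosen with earlier results of these data known. Named from each list were up to 4 called genes per direction with the largest ratio and the 2 brightest not called; further genes were named after their values were seen.

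Alternatives, 12 in all, each departed from the above in 1 respect: quantile normalization, median scaling, intensity-dependent centring (lowess, span 0.3), a pseudocount of 32, a floor of 150, other signal filters (above 150, above 500, above 250 on both arrays, none), the brightest probe set, no probe sets ending in _x_at or _s_at, and a threshold of 1. The steps were tested on simulated data. Python 3.11.15, pandas 2.3.3, numpy 2.4.6, statsmodels 0.14.6 and matplotlib 3.10.9 were used.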

Additional observations from a re-analysis of the deposited data

How the results depend on the processing

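Of the 10 genes, Rcan1 was called higher under all 12 alternatives, with a log2 ratio between 2.17 and 2.32 where the ratio itself was recomputed. Its probe sets pass every signal filter and the suffix rule and lie above the floor. Those alternatives could therefore not change its ratio of 2.26. At a threshold of 1 it was the only one of them called, 1 in place of 4, and 9.15% of all genes were called. Ppp3ca lost its call with intensity-dependent centring (-0.39). Ppp3cb lost its call with quantile normalization (-0.39), intensity-dependent centring (-0.36), a filter at 150 (-0.39) and the brightest probe set (-0.35). Ppp3r1 gained a call with quantile normalization (0.42) and intensity-dependent centring (0.45). Nfatc1 lost its call without a filter (-0.14) and had no value above 500 or above 250 on both arrays, which leave it no probe set. Mef2d turned positive (0.10) under those stricter filters and with the brightest probe set, since each leaves out its dimmer probe set. Of 108 log2 ratios recomputed for the 10 genes, 104 differed by less than 0.20, the median span between probe sets of a gene, and 4 by more. Some of the 104 could not differ. The floor of 150 left all 10 genes as they were, and a filter that keeps the same probe sets changes nothing. The median of the genes ran from -0.22 with median scaling to 0.02 with the stricter filters. The latter is a median over the 9 genes that kept a value, without Nfatc1. Median scaling moved the median of all genes from -0.04 to -0.15 and the shares called to 13.1% higher and 26.5% lower, while with intensity-dependent centring they were 19.4% and 16.1%. No paired analysis was possible because each genotype has 1 array. Low signals and the lack of replicates limit what differences of this size can show.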
